A study of Canis lupus familiaris with 6 samples.

Results

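The small leucine-rich proteoglycans asporin (ASPN), decorin (DCN), biglycan (BGN), lumican (LUM), fibromodulin (FMOD), PRELP, osteomodulin (OMD) and osteoglycin (OGN) were followed in healing mandibular bone of beagle dogs. All 8 genes had at least 1 probe set annotated to that symbol alone, 12 in all out of 42860 probe sets on the array. Of these 12, 7 carry the name prefix Cfa and 5 the prefix CfaAffx, and 10 passed the filter on low values, among 18269 annotated probe sets (10530 genes) that did. Both probe sets that did not pass are Cfa probe sets, of FMOD and PRELP.

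The dogs were 9 years old, and every group shares the same preparation, premolar extraction followed by 3 months of healing and then a drilled hole. Holes of one kind received beta-TCP (beta-tricalcium phosphate, a ceramic used to fill bone defects) and the control holes none, and bone cylinders were taken at days 4, 7 and 14. The groups are thus beta-TCP and control at day 4, beta-TCP and control at day 7, and beta-TCP and control at day 14, with 1 Affymetrix array each, 6 in all. The labels give neither the number of dogs nor whether specimens were pooled. With 1 array a group there is no replicate check on a single day, and no neighbouring levels can be said to differ beyond their spread. In whole bone specimens, fewer cells of a type and less RNA per cell cannot be told apart.

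Small leucine-rich proteoglycans are secreted proteins built around a curved row of leucine-rich repeats, with which they bind collagen fibrils and set the width and spacing of the fibrils. Decorin and biglycan carry chondroitin or dermatan sulfate chains and bind TGF-beta, lumican, fibromodulin and osteomodulin can carry keratan sulfate, and asporin has a stretch of aspartates in place of a sugar chain. In bone, decorin and biglycan belong to the matrix that osteoblasts lay down. Osteomodulin is known from osteoblasts and mineralized matrix, and asporin from the periodontal ligament and other fibrous tissue.

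Levels are given in multiples of the median of all probe sets on the same array, so that 1 is the median signal. Differences are log2(level + 1), beta-TCP minus control, and on this scale those of weak probe sets are understated. A difference called at least 2-fold is 1 or more on that scale, which for weak probe sets takes a larger ratio of levels than 2. Levels of different probe sets cannot be compared with one another. The sums over marker genes given below weigh bright probe sets most and do not measure amounts of a cell type.

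The day 14 values were deposited on another scale than those of days 4 and 7, and the effect of time up to day 14 and that of its processing cannot be told apart. The beta-TCP day 14 array stood apart from the others, with Spearman correlations of 0.723 to 0.779 over all probe sets, against 0.832 to 0.905 among the other 5 arrays. Every day 14 difference between beta-TCP and control rests on that array, and values from days 4 and 7 alone are given apart from it.

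Asporin, osteomodulin and osteoglycin were all higher at the beta-TCP site at days 4 and 7. Their differences were the largest of the family on these days, though OGN hardly exceeded DCN at day 4. ASPN (a Cfa probe set ending in _s_at) read 27.7 on the beta-TCP array, against 3.98 on the control array, at day 4. At day 7 it read 29.5 with beta-TCP, against 2.96 in the control. At day 14 the order was turned, with 6.06 with beta-TCP and 42.3 in the control. The differences were 2.52, 2.95 and -2.62 at days 4, 7 and 14. From high to low the arrays ran control day 14, beta-TCP day 7, beta-TCP day 4, beta-TCP day 14, control day 4 and control day 7.

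OGN (a CfaAffx probe set ending in _s_at), a member of the family first described in bone and also known as mimecan, had the same order of arrays at the top. It read 17.5 with beta-TCP, against 5.77 in the control, at day 4, and 29.1 with beta-TCP, against 4.59 in the control, at day 7. At day 14 it read 2.26 with beta-TCP, its lowest level, against 46.65 in the control, its highest. The differences were 1.45, 2.43 and -3.87, so the day 14 difference was the largest of any member probe set on any day.

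OMD (a CfaAffx probe set ending in _at) differed from both in the control series, where it was already high at day 7. It read 38.2 with beta-TCP, against 6.16 in the control, at day 4. It read 234.2 with beta-TCP, against 80.1 in the control, at day 7, and 44.3 with beta-TCP, against 71.8 in the control, at day 14. The differences were 2.45, 1.54 and -0.68, the last under 2-fold.

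**Figure D1:**
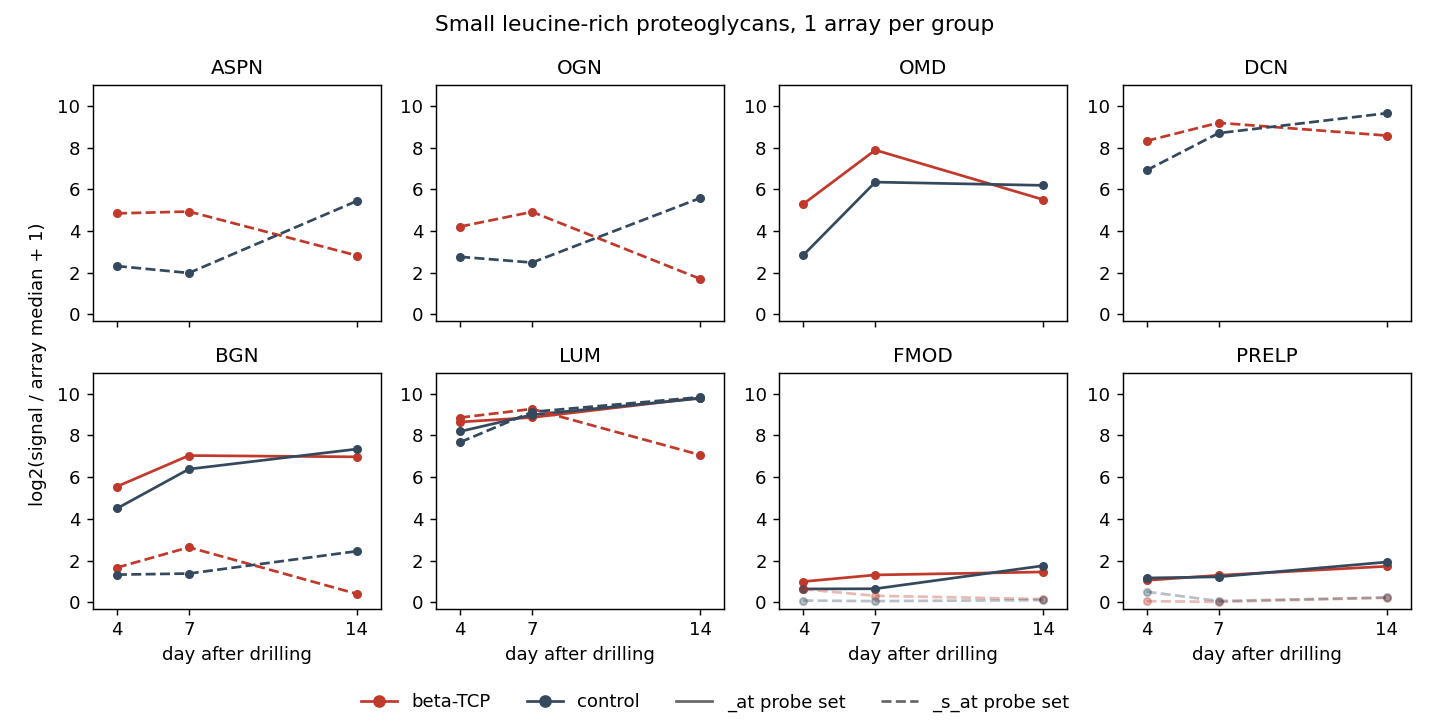
Level of each member on the 6 arrays, as log2(signal divided by the array median + 1) against the day after drilling. Red lines stand for beta-TCP and dark lines for control, solid lines for probe sets ending in _at, dashed lines for those ending in _s_at, and pale lines for the probe sets of FMOD and PRELP under the filter. ASPN and OGN run above the control at days 4 and 7 and under it at day 14.

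Decorin and biglycan were also higher with beta-TCP at days 4 and 7, by less than ASPN and OGN. At day 4 the order of DCN and OGN (1.41 and 1.45) depended on the processing. It turned with quantile normalization (1.48 and 1.29) and with a pseudocount of 16 (1.31 and 0.62). DCN (a Cfa probe set ending in _s_at) read 317.4 with beta-TCP, against 118.9 in the control, at day 4, and 580.5 with beta-TCP, against 411.4 in the control, at day 7. At day 14 it read 379.9 with beta-TCP and 797.7 in the control. The differences were 1.41, 0.50 and -1.07, the last under 2-fold with quantile normalization (-0.88) and the 90th percentile scaling (-0.63).

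BGN was read on a bright and a weak probe set, which had the same sign but not the same size on all 3 days. The bright one (Cfa, ending in _at) read 45.9 with beta-TCP, against 21.6 in the control, at day 4, and 130.3 with beta-TCP, against 82.7 in the control, at day 7. At day 14 it read 124.7 with beta-TCP, against 161.8 in the control, and its differences were 1.05, 0.65 and -0.37, the last of which turned to 0.0093 with quantile normalization and 0.060 under the 90th percentile scaling. The weak one (Cfa, ending in _s_at) read 2.17, 5.22 and 0.323 with beta-TCP at days 4, 7 and 14, against 1.51, 1.60 and 4.47 in the control, with differences of 0.34, 1.26 and -2.05. At day 4 only the bright probe set was 2-fold higher, at day 7 only the weak one.

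Lumican, which keeps collagen fibrils thin, was above the 98th percentile of every array on both probe sets, and its probe sets parted at day 14. The Cfa probe set of LUM (ending in _at) read 399.4 with beta-TCP, against 291.3 in the control, at day 4, and 464.2 with beta-TCP, against 507.7 in the control, at day 7. At day 14 it read 894.1 with beta-TCP and 876.3 in the control, a difference of 0.029 (-0.28 with quantile normalization and 0.46 under the 90th percentile scaling). The CfaAffx probe set (ending in _s_at) read 462.0 with beta-TCP, against 203.4 in the control, at day 4, and 616.4 with beta-TCP, against 558.6 in the control, at day 7. At day 14 it read 133.0 with beta-TCP, against 912.1 in the control, a difference of -2.77.

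Fibromodulin, which like lumican binds collagen and shapes its fibrils, and PRELP, which binds heparan sulfate of basement membranes, were weak. The CfaAffx probe set of FMOD (ending in _at) read 0.992, 1.48 and 1.74 with beta-TCP at days 4, 7 and 14, against 0.558, 0.569 and 2.38 in the control. Its differences of 0.35, 0.66 and -0.30 had the signs of ASPN without reaching 1 on the log2 scale, and the last was -0.0077 under the 90th percentile scaling. The day 7 levels themselves were 2.61-fold apart, and with a pseudocount of 0.25 the day 7 difference was 1.08. The CfaAffx probe set of PRELP (ending in _at) read 1.08, 1.45 and 2.31 with beta-TCP, against 1.24, 1.33 and 2.81 in the control, with differences of -0.11, 0.073 and -0.20, the last of which turned to 0.019 with quantile normalization and 0.11 under the 90th percentile scaling. The Cfa probe sets under the filter read at most 0.545 (FMOD) and 0.424 (PRELP) on any array, so they carried little signal.

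At day 4, 6 of the 10 member probe sets above the filter were at least 2-fold higher with beta-TCP and 0 lower, where 4.44% of all 18269 filtered probe sets were higher and 2.96% lower (2.28% and 5.38% once arrays are scaled to their 90th percentile, with 4 members higher). They belong to ASPN, OGN, OMD, DCN, BGN (bright) and LUM (CfaAffx), of which the bright BGN (0.81) and the CfaAffx LUM probe set (0.92) came under 2-fold with that scaling. At day 7, 4 of 10 (ASPN, OGN, OMD and the weak BGN probe set) were higher and 0 lower, against 3.03% and 2.88% of all. With a pseudocount of 0.25, 5 of 10, FMOD among them, were higher at day 7, against 6.59% of all. The median over the members was 1.12 at day 4 and 0.66 at day 7, beside medians of 0.17 and -0.033 over all filtered probe sets. The family thus lay 0.95 and 0.69 above the median of all on these days. Probe sets with a mean log2 level of at least 4, taken by prefix and ending, had medians of 0.22 to 0.43 at day 4. At day 7 their medians were -0.18 to -0.012.

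At day 14, 0 of 10 member probe sets were at least 2-fold higher and 5 lower, where 3.13% of all were higher and 18.4% lower (7.80% and 10.8% under that scaling). The median of the members was -0.88 and that of all probe sets -0.30, so relative to all the members lay at -0.58. Probe sets with a mean log2 level of at least 4 were lower too. Their day 14 medians were -0.297 (Cfa) and -0.836 (CfaAffx) for the ending _at, and -0.655 (Cfa) and -1.0027 (CfaAffx) for _s_at. The member median lay within this range, though not every member reaches that level. With quantile normalization the median of all was -0.10 and with the 90th percentile 0.0068, and ASPN, OGN, the CfaAffx LUM and the weak BGN probe set stayed at least 2-fold lower under both. Among Cfa probe sets 3 of 5 members were lower (ASPN, DCN and the weak BGN probe set) and 0 higher, with a median of -1.07, against 14.9% lower, 3.45% higher and a median of -0.22 over all Cfa probe sets. Among CfaAffx probe sets 2 of 5 were lower (OGN and LUM) and 0 higher, with a median of -0.68, against 21.4%, 2.85% and -0.36 over all CfaAffx probe sets. So both name types held lower members, and the prefix did not separate the members that were lower from those that were not.

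**Figure D2:**
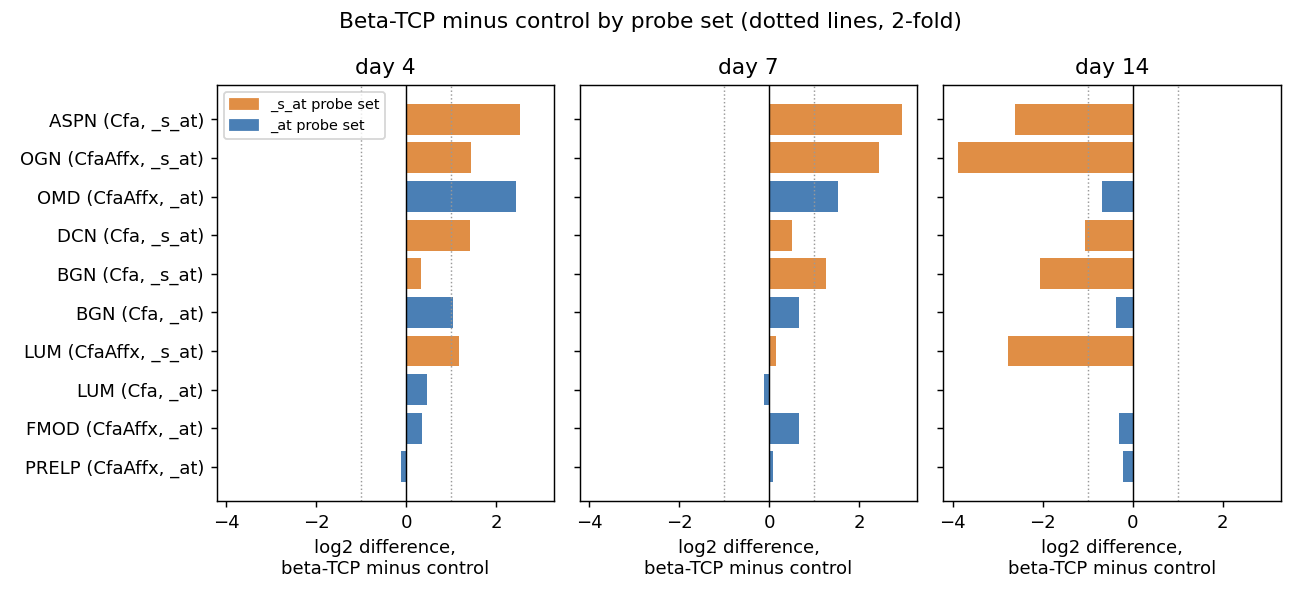
Log2 difference, beta-TCP minus control, of the 10 member probe sets above the filter at days 4, 7 and 14, with bars from 0 and dotted lines at 2-fold. Orange bars are probe sets ending in _s_at and blue bars those ending in _at. At day 14 the 5 orange bars lie between -3.87 and -1.07 and the 5 blue bars between -0.68 and 0.029.

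The end of the probe set name did separate them, a division made after the values had been seen. Affymetrix gives the ending _s_at to probe sets whose probes match more than 1 transcript and _at to those specific to 1. At day 14 all 5 member probe sets ending in _s_at were at least 2-fold lower with beta-TCP (-3.87 to -1.07), and 0 of the 5 ending in _at (-0.68 to 0.029). Over all filtered probe sets, 23.2% of 7815 ending in _s_at and 14.9% of 9896 ending in _at were lower at least 2-fold. Within the 1836 genes with both kinds at a mean log2 level of at least 2, the _s_at difference minus the _at difference had a median of 0.049, 0.14 and -0.52 at days 4, 7 and 14, and at day 14 it was below 0 in 1386 of them. For LUM the gap was -2.80 at day 14, against 0.73 and 0.27 at days 4 and 7, and for BGN it was -1.67, against -0.71 and 0.61. ASPN, DCN and OGN were read on _s_at probe sets alone, so for them no _at value stands beside the day 14 difference. The part of the probe set type in that difference was not tested.

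**Figure D3:**
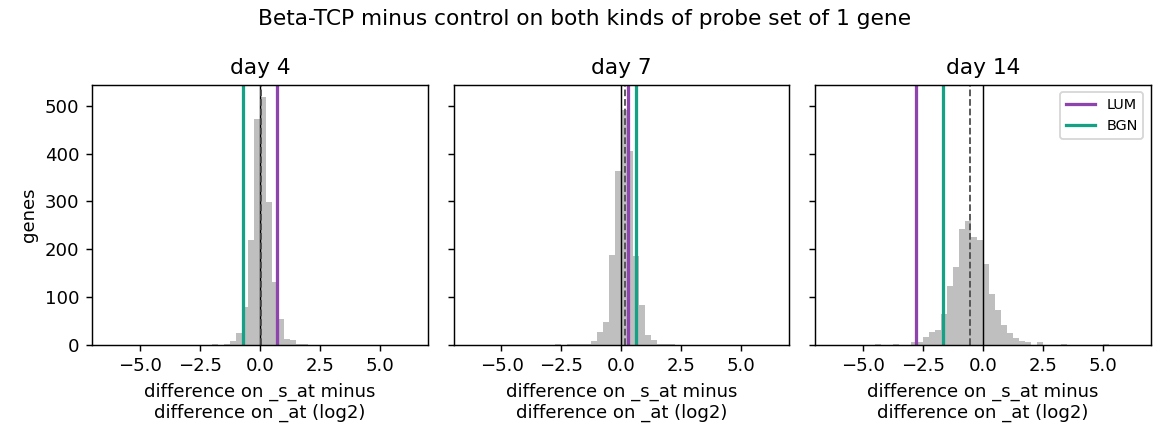
Difference (beta-TCP minus control) on _s_at probe sets minus that on _at probe sets of the same gene, on the log2 scale, for 1836 genes at days 4, 7 and 14 (grey histogram, number of genes, dashed line at the median). Purple lines mark LUM and green lines BGN, whose weak probe set lies under the level required of the grey genes. At day 14 LUM (-2.80) and BGN (-1.67) lie further left than the median of -0.52.

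With limma, a model with day and treatment as additive terms was fitted to the 6 arrays to test the beta-TCP effect averaged over days. No probe set passed an adjusted p of 0.05 (0% of 18269, with 691 at an unadjusted p under 0.05), and none of the members had an unadjusted p under 0.05. OMD came nearest among them (1.10 ± 0.53, SE, unadjusted p = 0.0688, limma), while ASPN averaged 0.95 ± 0.90 (SE). The SE of ASPN and OGN (0.97) were the widest of the members.

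A second limma fit, added after the values had been seen, gave the day 14 effect a term of its own and took its error from how far days 4 and 7 differed from each other. In it the mean effect of days 4 and 7 passed for 3 of 10 member probe sets, where 0.909% of all did. ASPN was higher by 2.74 ± 0.32 (SE, adjusted p = 0.000225), OMD by 1.99 ± 0.33 (adjusted p = 0.00461) and OGN by 1.94 ± 0.33 (adjusted p = 0.00608). DCN (0.95), both BGN probe sets (0.85 and 0.80), the CfaAffx LUM probe set (0.66), FMOD (0.51), the Cfa LUM probe set (0.16) and PRELP (-0.019) did not pass. Only 1 residual degree of freedom lies behind these values, to which limma's prior adds 20.3.

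The effect at day 14 differed from that of days 4 and 7 for 6 of 10 member probe sets in the same fit, where 7.48% of all did (1272 lower and 95 higher, or 921 and 435 under the 90th percentile scaling). OGN differed most, by -5.81 ± 0.58 (SE, adjusted p = 9.4e-06), and ASPN by -5.35 ± 0.55 (adjusted p = 1.4e-05). The CfaAffx LUM probe set (-3.43), the weak BGN probe set (-2.85), OMD (-2.68) and DCN (-2.02) also passed, with adjusted p of 0.00154 to 0.0340. DCN lost the call with a pseudocount of 0.25 (adjusted p = 0.0720) and with the 90th percentile scaling (adjusted p = 0.0768). Of these 6, OMD is the 1 read on an _at probe set. Over all probe sets 9.83% of those ending in _s_at and 5.72% of those ending in _at passed. The bright BGN probe set (-1.22, adjusted p = 0.189) and the Cfa LUM probe set (-0.13, adjusted p = 0.920) did not. With a pseudocount of 16, or with no filter on low values, 0 members passed for days 4 and 7 or for day 14 against them.

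**Figure D4:**
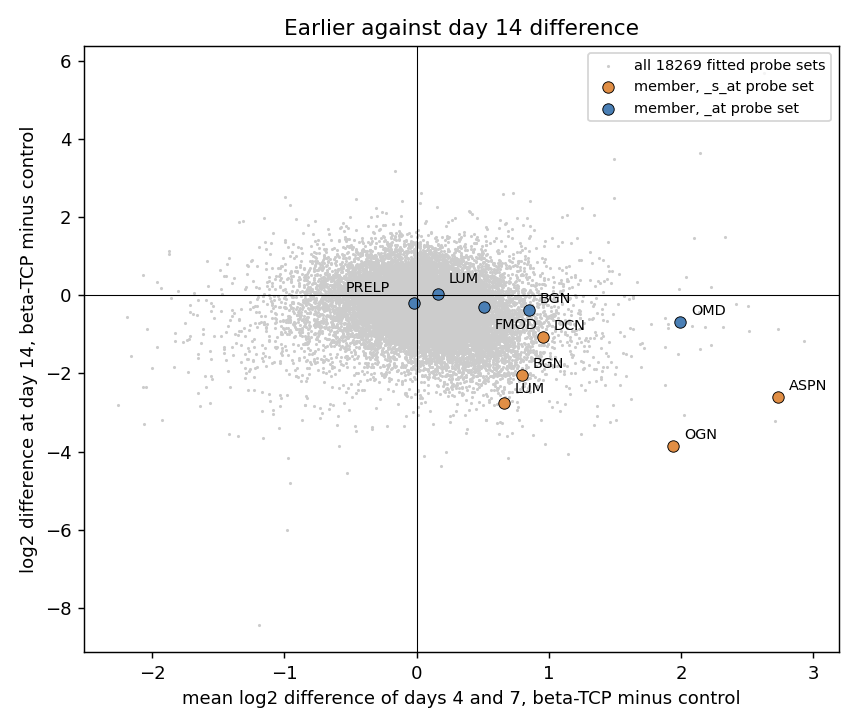
Log2 difference at day 14 against the mean log2 difference of days 4 and 7, both beta-TCP minus control, for all 18269 fitted probe sets (grey) and the 10 member probe sets (orange, _s_at, and blue, _at). ASPN, OMD and OGN lie furthest right of the members, at 2.74, 1.99 and 1.94, and ASPN and OGN lie at -2.62 and -3.87 at day 14.

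Along the control series the members were higher from different days on. Between days 4 and 7, 4 of 10 probe sets were at least 2-fold higher and 0 lower, against 13.0% and 6.05% of all. OMD differed by 3.50, the bright BGN probe set by 1.89, DCN by 1.78 and the CfaAffx LUM probe set by 1.45, while ASPN (-0.33) and OGN (-0.28) were slightly lower. Between days 7 and 14 another 4 of 10 were 2-fold higher and 0 lower, against 3.68% and 6.53% of all, now ASPN (3.45), OGN (3.09), FMOD (1.11) and the weak BGN probe set (1.07). OMD changed by only -0.16 between these days.

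Along the beta-TCP series, OMD (2.59) and the bright BGN probe set (1.49) were 2-fold higher at day 7 than at day 4 and 0 of 10 lower, against 4.13% and 2.84% of all. ASPN, high from day 4, differed by 0.090. Between days 7 and 14, 0 of 10 were higher and 5 lower, against 3.83% and 22.9% of all. These 5 were OGN (-3.21), OMD (-2.38), the weak BGN probe set (-2.23), the CfaAffx LUM probe set (-2.20) and ASPN (-2.11). The Cfa LUM probe set ran the other way (0.94), and the bright BGN probe set differed by -0.062.

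In the additive fit the F test over days called 1.15% of probe sets and none of the members, of which 4 of 10 had an unadjusted p under 0.05. No probe set passed for day 7 minus day 4 (0%), and 0.0219% passed for day 14 minus day 7, none of them a member. For day 14 minus day 4, 3.60% passed, and among the members only the bright BGN probe set (2.14 ± 0.44, SE, adjusted p = 0.0370, limma). It lost the call with a pseudocount of 0.25 (adjusted p = 0.0889), a pseudocount of 16 (adjusted p = 0.156) and no filter (adjusted p = 0.133).

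The members share gene neighbourhoods, which the choice of genes did not use. In the RefSeq annotation of the dog assembly UU_Cfam_GSD_1.0, where 7 of the 8 members matched by gene ID and OMD by symbol, ECM2, ASPN, OMD and OGN follow one another directly among protein-coding genes. KERA, LUM and DCN do so elsewhere, as do FMOD, PRELP and OPTC, and BGN lies on its own. ASPN, OMD and OGN, the 3 members that passed for days 4 and 7, are thus direct neighbours. ECM2, a matrix protein with the same kind of repeats, is the next gene, and its 3 probe sets had differences of 0.69 to 0.91 at day 4 and 0.87 to 1.76 at day 7. At day 14 they gave 0.29, -0.71 and -0.89. KERA, EPYC and OPTC were under the filter.

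Genes of any kind were then compared with the mean centred profile of the 8 members over the 6 arrays. That profile read -0.066 with beta-TCP, against -1.26 in the control, at day 4, 0.75 with beta-TCP, against -0.34 in the control, at day 7, and -0.11 with beta-TCP, against 1.03 in the control, at day 14. Among 10522 other genes the 8 with the highest Pearson correlation were DYNC2LI1 (0.997), SLC25A17, PLS3, ECM2 (0.992), PDSS1, TFG, TGFBR3 and FAT4 (0.988). They are given as a description over 6 arrays that share dogs or preparation to an unknown degree. TGFBR3, which encodes the TGF-beta co-receptor betaglycan, had differences of 0.78, 0.73 and -0.65 on that probe set, but its other filtered probe set gave -0.49, -0.76 and 0.10. Of the members, DCN lay closest to the shared profile (0.953) and PRELP furthest (0.570). Each member is itself part of that profile, which raises these correlations.

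Counts in lists of related genes, and in the cell type markers after them, are set beside the shares of all filtered probe sets at least 2-fold higher and lower. These shares were 4.44% and 2.96% at day 4, 3.03% and 2.88% at day 7, and 3.13% and 18.4% at day 14. Of 10 fibrillar and associated collagen genes above the filter, 3 were at least 2-fold higher at day 4 (led by COL6A1, 1.65, and COL12A1, 1.24), 2 at day 7 (COL14A1, 1.36, and COL12A1, 1.16) and 0 at day 14. At day 14, 3 were lower, led by COL6A1 (-2.85, on an _a_at probe set) and COL12A1 (-1.99). The fibrillar collagens COL1A1 (0.99, on an _at probe set), COL1A2 (0.65) and COL3A1 (0.30, both on _s_at probe sets) were higher at day 14, under 2-fold. The median of the 10 collagen genes was 0.094 on that day. COL12A1, a collagen on the surface of fibrils, was thus 2-fold apart on each day with the signs of ASPN, and was read on an _at probe set.

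Of 17 enzymes above the filter that start, extend or modify chondroitin and dermatan sulfate chains, 1 was higher and 1 lower at day 4, 2 higher at day 7, and 0 higher and 7 lower at day 14. DSEL, an epimerase-like gene of dermatan sulfate formation, read 8.22 with beta-TCP, against 2.17 in the control, at day 4, and 1.42 with beta-TCP, against 7.15 in the control, at day 14. CHPF was the lower one at day 4 (-1.02), UST (1.84) and CHSY3 (1.18) were higher at day 7, and CHSY3 (-1.93) and DSEL (-1.75) led the lower ones at day 14. Of 5 keratan sulfate enzymes, 0 differed 2-fold at days 4 and 7, and at day 14 ST3GAL1 (1.63) was higher and B4GALT4 (-1.18) lower. The day 14 control reading of ST3GAL1 was 0.05, far under the array median, where signal over background is unknown.

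Of the 9 genes of TGF-beta ligands, receptors and latency proteins, 0 differed 2-fold at days 4 and 7. At day 14 LTBP3 (1.01) was higher and TGFB2 (-1.59, on an _s_at probe set) lower. Among 6 receptors known to bind decorin or biglycan, KDR was higher at day 4 (1.55) and TLR2 lower (-1.08), and TLR4 was lower at days 7 (-1.05) and 14 (-1.25). TLR2 and TLR4 are innate immune receptors that soluble biglycan can engage. Of 8 proteases that cut these proteoglycans or their collagens, 0 differed 2-fold at day 4, MMP2 (1.07) was higher and MMP9 (-1.66) and MMP13 (-1.30) lower at day 7. At day 14 MMP9 (1.41) and MMP13 (1.24) were higher and ADAMTS5 (-1.84) and MMP14 (-1.48, on an _s_at probe set) lower. The day 14 beta-TCP reading of ADAMTS5 was 0.081, far under the array median.

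Proteoglycans of other families were read too. Of 6 above the filter, aggrecan (ACAN), the large proteoglycan of cartilage, was higher at days 4 (1.52) and 7 (2.23), and versican (VCAN, -1.73) and serglycin (SRGN, -3.86) were lower at day 14, both on _s_at probe sets. Of 4 further small leucine-rich proteoglycans above the filter, chondroadherin (CHAD) was 2-fold higher at day 7 (1.68), with 4.19 with beta-TCP, against 0.623 in the control, and none at days 4 or 14.

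Marker genes of several cell types also differed on the same arrays. The 9 fibroblast and mesenchymal markers summed to 980 with beta-TCP, against 799 in the control, at day 4, 1135 against 1094 at day 7 and 1517 against 1526 at day 14, sums to which VIM alone gave 704.7 with beta-TCP, against 645.1 in the control, at day 4. Of them 4 were at least 2-fold higher at day 4 (POSTN, 2.42, PDGFRB, 1.50, TWIST1, 1.31, and FAP, 1.25), 1 at day 7 (POSTN, 3.44) and 4 lower at day 14. The 9 measured stratified epithelium markers summed to 8.67 with beta-TCP, against 108.3 in the control, at day 4, 18.8 against 18.5 at day 7 and 6.92 against 6.42 at day 14, with 6 of 8 filtered ones lower at day 4. The 8 leukocyte markers summed to 522 with beta-TCP, against 645 in the control, at day 4, 529 against 809 at day 7 and 550 against 521 at day 14. The part of these and the following cell types in the member differences was not tested.

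Markers of bone were present on all arrays for SPP1 (154.4 to 653.4) and SPARC, while BGLAP and MEPE read under the array median on all 3 control arrays. The 9 measured bone markers summed to 1103 with beta-TCP, against 779 in the control, at day 4, 1623 against 1411 at day 7 and 1776 against 1190 at day 14, and SPP1 and SPARC made up most of each sum. Of these 9, 2 were at least 2-fold higher at day 4, 5 at day 7 and 4 at day 14, and 0 lower on any day. MEPE (3.02 and 2.50), PHEX (2.04 and 2.41) and BGLAP (1.85 and 1.72) were higher at days 7 and 14, the last a day on which 5 member probe sets were lower. The 5 endothelial markers summed to 130.6 with beta-TCP, against 61.7 in the control, at day 4, 230.7 against 333.5 at day 7 and 309.5 against 224.5 at day 14. The 4 adipocyte markers summed to 7.87 with beta-TCP, against 15.3 in the control, at day 4, 29.4 against 3.72 at day 7 and 29.0 against 48.5 at day 14. The 7 cartilage markers summed to 36.3 with beta-TCP, against 12.2 in the control, at day 7 and 25.9 against 22.1 at day 14. ACAN alone gave 25.8 of the beta-TCP sum at day 7. Of the 3 filtered ones, 1 was at least 2-fold higher at day 4, 2 at day 7 and 1 at day 14. On each day 0 were lower, and their medians were 0.33, 1.83 and 0.12 at days 4, 7 and 14. COL2A1, the collagen of cartilage, was under the filter and read at most 0.66 on any array.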

How the data were processed

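For days 4 and 7 the authors deposited a signal that, judged by the values, is divided by the array's own median (median 1.00) with a floor of 0.01. The intensity deposited by the authors for day 14 is undivided, with a median of 6.2 on the beta-TCP and 12 on the control array. The labels used here name no software. Values were divided by the median of 42860 probe sets per array and log2(value + 1) taken. Departing from the design, 90 pairs of probe sets ending in _a_at and _at (none a member) were left out by name alone. The reason was that such pairs were taken to run in opposite order at day 14, for which no values are given here. Probe sets annotated to 1 gene numbered 29254, by GEO's platform annotation, which can be old. Those whose mean reached the 40th percentile (18269) were fitted with limma 3.58.1 in R 4.3.3 (lmFit, eBayes). Tests were two-sided and Benjamini-Hochberg adjusted over all 18269. Only the additive fit was tried on simulated data, and the second fit, with the day 14 term, was not. The additive fit has 2 residual degrees of freedom. Named genes are all members and, of each list, the 2 highest and 2 lowest per day past 2-fold. Other genes are named as markers, neighbours or the 8 most alike in profile, and COL1A1, COL1A2 and COL3A1 as main fibrillar collagens. Members and lists were chosen with earlier results of these data known. The number of arrays limits the precision. Alternatives were the pseudocount, scaling, probe set type, filter, 1 probe set a gene and leaving out a day.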

Additional observations from a re-analysis of the deposited data

Results flagged for a closer look

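The beta-TCP effect at day 14 differed from the mean effect at days 4 and 7 for 6 member probe sets by the interaction term in limma (adjusted p under 0.05 over all 18269 probe sets). The differences were -5.81 for OGN, -5.35 for ASPN, -3.43 for the CfaAffx probe set of LUM, -2.85 for the weak probe set of BGN, -2.68 for OMD and -2.02 for DCN. On other probe sets of the same genes the term was -0.13 for LUM and -1.22 for BGN, neither past the threshold. The test was chosen after the values had been seen, and the day 14 side of each difference rests on 1 beta-TCP array and 1 control array.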

How the results depend on the processing

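The median member difference kept its sign on each day under every alternative tried. With a pseudocount of 16 it was 0.67 at day 4, 0.38 at day 7 and -0.44 at day 14. At day 14 it was -0.58 with quantile normalization and also relative to the median of all fitted probe sets (chosen after seeing the data), -0.44 with arrays scaled to the 90th percentile, and -0.53 with the probe set of highest mean per gene or with no filter. It was -0.30 on _at and -2.62 on _s_at probe sets alone, a division chosen after seeing the data. Counts at least 2-fold apart fell with fewer probe sets, to 3 and 3 (Cfa, CfaAffx) at day 4, 2 and 2 at day 7 and 3 and 2 at day 14, and to 3 at day 14 with 1 probe set per gene. With all 10 kept, they were 4 (pseudocount 16, 90th percentile) and 5 (quantile) against 6 at day 4. At day 7 they were 3 (pseudocount 16) and 5 (pseudocount 0.25) against 4. At day 14 they were 4 (pseudocount 16, 90th percentile and quantile) against 5. For the average effect, 3 members passed without the day 14 pair and 0 under the other alternatives. Leaving out that pair gives the same test, with the same values, as the mean effect of days 4 and 7 in the second fit. It is not a separate result. The F test over days called 1 member at the 90th percentile scaling, with Cfa probe sets and without the day 7 pair, 2 with 1 probe set per gene and 3 without the day 14 pair. For day 14 against days 4 and 7, 3 passed on Cfa and 3 on CfaAffx probe sets, and 0 with a pseudocount of 16 or no filter. Limma's prior degrees of freedom were 20.3 in the main setting, 1.49 with a pseudocount of 16 and 3.29 with no filter. With no filter the estimates themselves stayed the same (ASPN, -5.35). The cause was not tested. Over all probe sets, 0 passed for the average effect, against 166, 4 and 2 without the day 14, 7 and 4 pair. The F test over days called 210, against 0 (pseudocount 16, no filter) to 1404 (without the day 14 pair), and the day 14 term 1367, against 0 (the same 2 settings) to 2076 (pseudocount 0.25). No paired analysis was possible because each group holds 1 array and the labels give no replicate numbers, beyond the day term of the additive fit, which sets beta-TCP against control within each day. Detection calls were not used here, so signal over background of the weak probe sets of FMOD, PRELP and BGN is unknown.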

Other observations

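Of the 9 fibroblast and mesenchymal markers, some had the signs of ASPN on each day and others did not. The 4 that were at least 2-fold lower at day 14 were POSTN, TWIST1, FAP and THY1. PDGFRA, PDGFRB and PRRX1 were not 2-fold lower on that day, and their values are left out of this description. Periostin (POSTN) read 19.0 with beta-TCP, against 2.73 in the control, at day 4, 75.4 with beta-TCP, against 6.04 in the control, at day 7, and 28.3 with beta-TCP, against 64.3 in the control, at day 14. The transcription factor gene TWIST1 read 2.07 with beta-TCP, against 0.24 in the control, at day 4, 3.60 with beta-TCP, against 3.09 in the control, at day 7, and 0.048 with beta-TCP, against 2.45 in the control, at day 14. Its readings of 0.24 and 0.048 lie far under the array median, where signal over background is unknown. FAP, a surface protease of activated fibroblasts, differed by 1.25, 0.044 and -1.34. VIM (0.13, -0.14 and 0.054), S100A4 (0.63, 0.11 and 0.37) and THY1 (0.82, -0.17 and -1.25) had other signs on at least 1 day. Bone sialoprotein (IBSP) did not turn, with differences of 2.50, 2.16 and 1.50.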
